A study of Mus musculus with 2 samples.

Results

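The 10 transcription factors that set T cell state, *Tcf7*, *Lef1*, *Tox*, *Tox2*, *Id2*, *Id3*, *Eomes*, *Tbx21*, *Prdm1* and *Bach2*, were examined in T and NK cells of livers bearing cholangiocarcinoma (CCA). They were chosen by gene symbol, with earlier results of these data known, and all 10 were among the genes listed for both libraries. Single-cell RNA-Seq covered 2 libraries, 1 from each group, made from mouse liver that carried tumors. Both groups were shYT mice, in which doxycycline drives shRNAs against *Yap1* and *Wwtr1* (encoding TAZ) through rtTA3 expressed from the ubiquitous CAG promoter, so that every cell type, lymphocytes included, may carry the knockdown. CCA had been induced by hydrodynamic tail vein injection of plasmids for the Notch intracellular domain and myristoylated AKT. The shRNAs were induced on day 25, and mice then received the anti–PD-1 antibody RMP1-14 on days 26, 29 and 32, or PBS as control, before livers were taken on day 33. Since the controls carried the shRNAs too, the comparison concerns the antibody in shYT mice, and the knockdown itself was not compared. The labels give neither sex, age, strain nor number of animals. The study describes several animals per group for this experiment and no hashtag labeling of their cells, and cells were not assigned to animals here.

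These factors divide T cell fates among them. *Tcf7* (encoding TCF-1) and *Lef1* are high-mobility-group factors that maintain naive and stem-like cells, whereas *Tox* and *Tox2* are related factors that accompany chronic antigen exposure and checkpoint receptor expression. The inhibitors of DNA binding *Id2* and *Id3* sequester E proteins, with *Id2* linked to effector and innate lymphocytes and *Id3* to memory precursors. *Eomes* and *Tbx21* (encoding T-bet) are T-box factors of cytotoxic lymphocytes. *Prdm1* (encoding Blimp-1) promotes terminal differentiation, and *Bach2* restrains it.

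Cells were assigned to gates by marker genes that do not include any of the 10 factors. The PBS library held 3289 T cells and the anti–PD-1 library 3459 T cells among 15531 and 16360 kept cells. The CD8 gate (*Cd8a* or *Cd8b1*, without *Cd4*, *Foxp3* or *Trdc*) held 914 and 1300 cells, the CD4 gate 690 and 781, the regulatory T cell (Treg) gate, defined by *Foxp3*, 242 and 239, and the γδ gate, defined by *Trdc*, 81 and 77. The NK gate, which excluded any *Cd3d*, *Cd3e* or *Cd3g* transcript, held 447 and 558 cells. Levels are unique molecular identifiers (UMIs, which count transcripts) summed per library and gate and given as CPM, the count of a gene scaled to a common total of UMIs. *Foxp3* stood at 571.7 and 527.6 CPM in Tregs and *Ncr1*, an NK receptor gene, at 842.4 and 533.6 CPM in NK cells.

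With 1 library per group there was no replicate and no test. Intervals are 95% intervals of counting error only, exact Poisson for levels and exact binomial for ratios and shares. A ratio is given where both libraries together held at least 30 UMIs, as the log2 of anti–PD-1 over PBS, and 1.5-fold in either direction is used as the size worth counting. Under alternative settings some ratios are printed from fewer UMIs, as descriptions only. Values of the 2 libraries are printed in the order PBS, anti–PD-1.

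The 2 libraries differed in ways that the labels do not describe. *Xist*, expressed from the inactive X chromosome of females, gave 18452 UMIs with PBS against 11 with anti–PD-1, and 4 Y-linked genes had 3113 and 15323 UMIs. The PBS library therefore contained cells of both sexes, and at least 2 animals, while the anti–PD-1 library was almost wholly male. In the CD8 gate, 394 PBS cells had *Xist* without a Y-linked transcript and 77 had the reverse, which allowed members to be set side by side within 1 library. Another 16 of these PBS cells had both kinds of transcript and 427 had neither. Cells of different sex come from different animals, so sex and animal cannot be told apart in this split. CD8-gated cells were also deeper in the anti–PD-1 library, with median counts of 2882 and 4168 UMIs per cell. All 7 neutrophil markers were detected in the CD8 gate of both libraries, at a summed level of 133.7 and 822.9 CPM, as were all 8 tumor and biliary epithelial markers, at 1540.2 and 713.4 CPM. Dissociation stress genes were higher after anti–PD-1 in the CD8 gate, 8 of 14 past 1.5-fold (8.26% of all genes tested) and none lower (15.6%), with a median log2 ratio of 0.75 against −0.11 for all genes. Of the same 14 genes, 9 were higher in the CD4 gate, 10 in Tregs, 10 in the γδ gate and 8 in NK cells, and none was lower. In that order, 7.68%, 9.99%, 13.1% and 7.64% of all genes were higher and 17%, 14.4%, 13.2% and 18.5% lower. The part of depth, other cells' RNA and stress in the differences below was not tested. The libraries shared 219 barcodes, 145 of them among kept cells.

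The factors lie on 7 chromosomes of the GRCm38 mouse genome (GENCODE vM21). *Tcf7* spans chr11:52252371-52283014 on the reverse strand and *Lef1* chr3:131110471-131224356 on the forward strand, while *Eomes* is compact, at chr9:118478212-118486132 on the forward strand. Antisense genes overlap *Tcf7*, *Lef1*, *Tox*, *Eomes* and *Bach2*, and the sources used here do not state whether counting used strand, so their counts may include the antisense partner. RefSeq promoter windows (GRCm38.p6, 250 bases before to 50 after an annotated start) were found for 9 of the 10 factors, and none for *Tox*. The first window is shown for the naive pair *Tcf7* and *Lef1*, whose levels moved together across CD8 states, for *Tox2*, with the largest CD8 ratio, and for *Eomes*, which differed in opposite directions between gates. All are written 5′ to 3′ on the gene's strand, with capitals marking E-boxes (CANNTG), the motif of the E proteins that Id proteins sequester.
*Tcf7*, chr11:52282965-52283264, reverse strand: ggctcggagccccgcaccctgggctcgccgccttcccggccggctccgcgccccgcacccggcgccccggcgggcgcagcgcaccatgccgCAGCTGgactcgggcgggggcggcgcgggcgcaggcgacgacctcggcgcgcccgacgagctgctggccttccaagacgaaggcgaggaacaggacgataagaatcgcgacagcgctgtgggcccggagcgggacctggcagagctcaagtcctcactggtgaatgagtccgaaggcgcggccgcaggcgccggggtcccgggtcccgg
*Lef1*, chr3:131110047-131110346, forward strand: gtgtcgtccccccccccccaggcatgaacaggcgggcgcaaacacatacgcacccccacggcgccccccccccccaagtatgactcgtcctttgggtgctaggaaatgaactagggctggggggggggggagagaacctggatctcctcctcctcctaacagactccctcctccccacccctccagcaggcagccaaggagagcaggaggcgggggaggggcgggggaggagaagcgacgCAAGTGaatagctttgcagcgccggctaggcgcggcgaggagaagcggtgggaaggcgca
*Tox2*, chr2:163202877-163203176, forward strand: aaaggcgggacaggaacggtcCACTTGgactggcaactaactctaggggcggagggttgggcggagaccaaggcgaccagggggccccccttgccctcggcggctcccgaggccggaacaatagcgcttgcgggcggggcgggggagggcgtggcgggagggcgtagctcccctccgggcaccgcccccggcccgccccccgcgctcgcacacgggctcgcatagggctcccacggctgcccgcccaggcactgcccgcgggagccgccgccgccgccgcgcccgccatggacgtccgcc
*Eomes*, chr9:118477939-118478238, forward strand: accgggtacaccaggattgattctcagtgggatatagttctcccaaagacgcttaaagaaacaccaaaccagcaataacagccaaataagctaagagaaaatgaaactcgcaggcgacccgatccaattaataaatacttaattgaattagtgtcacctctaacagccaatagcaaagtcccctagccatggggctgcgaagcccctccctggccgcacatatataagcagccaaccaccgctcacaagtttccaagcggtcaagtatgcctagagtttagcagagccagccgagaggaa

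*Tcf7*, *Lef1* and *Tox2* each held 1 E-box in this window, overlapping no other motif searched, and *Eomes* held none. In the *Tcf7* window the E-box lies just after an ATG whose reading frame holds no stop up to the window's end. That stretch, E-box included, may therefore be coding sequence rather than promoter. A CANNTG match occurred in 72.31% of all 32851 windows of this length, so its presence does not set these genes apart. Searched on both strands, the TCF/LEF letters CTTTGA (16% of all windows), the T-box letters GGTGTGA (3.979%) and the BACH/AP-1 letters TGANTCA (7.808%) were in none of the 4 windows shown. The *Tcf7* and *Tox2* windows were GC rich (76.33% and 77%), the *Lef1* window held 67.33% GC and the *Eomes* window 47.33%. A match is a description of letters and not a binding site.

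Among the T and NK gates, each factor had its own order of levels. The highest gate was the same in both libraries for *Lef1*, *Tox2*, *Eomes*, *Tbx21* and *Prdm1*. *Tcf7* was high in conventional T cells, with 362.3 CPM (interval 339.2 to 386.6) and 328.5 CPM (309.1 to 348.9) in the CD4 gate and 284.8 and 222.8 CPM in the CD8 gate. It was lowest in Tregs, with 95.9 and 82.91 CPM, and NK cells were near that level with 98.23 and 102.1 CPM. *Tcf7* in Tregs lay below the CD4 gate by 1.92 and 1.99 on the log2 scale, and these intervals did not reach 0 in either library. *Lef1* was lowest in NK cells, with 216.5 and 182.7 CPM in the CD8 gate against 46.62 and 36.91 CPM in NK cells.

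*Tox* and *Tox2* were higher in CD4, CD8 and regulatory T cells than in NK cells. *Tox* stood at 203.2 and 183.7 CPM in the CD4 gate, 176.8 and 211 CPM in Tregs and 166.6 and 170.3 CPM in the CD8 gate, against 79.91 and 75.74 CPM in NK cells. *Tox2* stood at 45.74 and 50.85 CPM in the CD4 gate and 44.19 and 39.36 CPM in Tregs, and intervals of these neighbours overlapped. NK cells had 1 *Tox2* UMI in each library, and the NKT-like gate (T cells with *Klrb1c* or *Ncr1* but without *Cd4*, *Cd8a* or *Cd8b1*) had 0 and 2 UMIs, where the interval for 0 UMIs reaches 4.421 CPM.

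*Id2* was highest in NK and NKT-like cells, and the T-box factors *Tbx21* and *Eomes* in NK cells. Of these 3 factors only *Eomes* was higher in the CD8 gate than in the CD4 gate, by a log2 difference of 4.85 and 2.22, whereas that of *Tbx21* was −0.04 and 0.03 and that of *Id2* −0.03 and −0.40. *Id2* reached 1759.8 and 1365.3 CPM in NK cells and 1767.8 and 1031.9 CPM in the NKT-like gate, against 803.8 and 467.4 CPM in the CD8 gate and 395.8 and 533.5 CPM in Tregs. *Tbx21* was highest in NK cells, with 214.8 CPM (189.4 to 242.6) and 207.1 CPM (188 to 227.6), clear of the next gate, the NKT-like cells, at 116.3 and 129.1 CPM. *Eomes* was split between NK cells (109.1 and 144.8 CPM) and CD8 cells (103.4 and 61.58 CPM), whose intervals overlapped in the PBS library only. It was near 0 in Tregs, with 2 and 3 UMIs in all.

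*Prdm1* and *Bach2* differed in opposite directions between Tregs and CD4 cells. *Prdm1* was highest in Tregs, at 95.9 and 97.98 CPM, against 30.23 and 52.09 CPM in the CD4 gate, a log2 difference of 1.67 (1.22 to 2.11) and 0.91 (0.56 to 1.26). *Bach2* was lower in Tregs, at 21.63 and 37.69 CPM against 50.51 and 76.74 CPM in the CD4 gate. *Id3* lay between 42.45 and 77.44 CPM in the gates of the PBS library, except in the γδ gate with 20.85 CPM from 5 UMIs. In the anti–PD-1 library it lay between 65.68 and 114.4 CPM. It was higher in CD8 than in NK cells, by a log2 difference of 0.87 (0.43 to 1.33) and 0.41 (0.14 to 0.69).

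**Figure D1:**
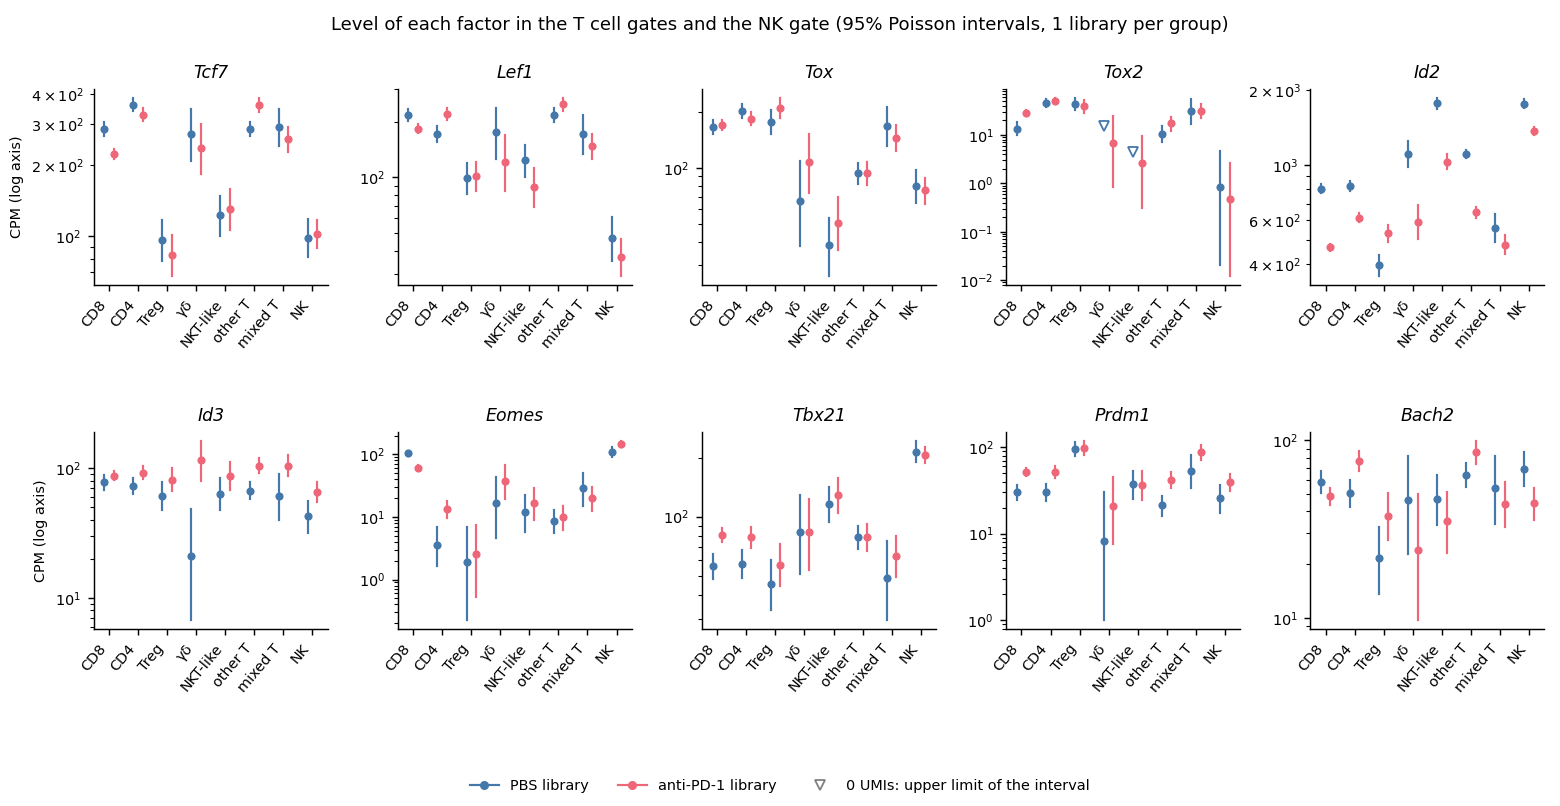
Level of each factor in CPM on a log axis (a different range for each factor) in the 8 T and NK gates, for the PBS library (blue) and the anti–PD-1 library (red). Points are levels from summed UMIs, bars are 95% Poisson intervals and open triangles mark the upper limit where no UMI was counted. *Eomes* and *Tbx21* were highest in NK cells, *Prdm1* in Tregs and *Id2* in NK and NKT-like cells in the plot.

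*Bach2*, *Id2*, *Id3* and *Prdm1* were also found in other cell types. *Bach2* was higher in B cells, at 256.7 and 212.8 CPM, than in any T or NK gate. *Id2* stood at 1865 and 1762.8 CPM in dendritic cells, with intervals that overlapped those of NK cells in the PBS library only. *Id3* reached 1087.2 and 1751.9 CPM in Kupffer cells and 1173.2 and 1723.6 CPM in endothelial cells, more than 10 times its CD8 level. Plasma cells, in which Blimp-1 is essential, held *Prdm1* at 64.31 and 139.3 CPM. Neutrophils, which should lack the lymphoid factors, gave a background for cells with a UMI. After thinning every cell to 1000 UMIs, *Tcf7* was detected in 21.08% (18.47 to 23.88) and 19.63% (17.49 to 21.91) of CD8-gated cells but 0.8751% and 1.737% of neutrophils, and *Eomes* in 8.278% and 4.128% of CD8-gated cells but 0.07955% and 0.2396% of neutrophils. Without thinning, the CD8 shares were 47.81% and 45.92% for *Tcf7* and 22.76% and 16.85% for *Eomes*. For *Id2* the neutrophil shares after thinning were 35.32% and 18.24%, so a *Id2* UMI in a single cell did not mark it as a lymphocyte. The shares were higher in CD8-gated cells (44.37% and 31.85%) and NK cells (78.8% and 63.92%).

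The comparison of anti–PD-1 with PBS asked whether blockade of PD-1 was accompanied by a different balance of these factors. In CD8-gated cells, 2 of the 10 factors were higher by 1.5-fold or more after anti–PD-1, where 8.26% of all 10868 genes tested were, and 2 were at least 1.5-fold lower, where 15.6% of all genes were. *Tox2* and *Prdm1* were higher, *Id2* and *Eomes* were lower, and the median log2 ratio of the 10 factors (−0.11) equalled that of all genes (−0.11).

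*Tox2* was counted 43 and 195 times. Its level was 13.59 CPM (9.836 to 18.31) against 28.8 CPM (24.9 to 33.13), with a log2 ratio of 1.08 (0.60 to 1.59). *Prdm1* stood at 30.03 and 51.39 CPM, a log2 ratio of 0.78 (0.44 to 1.12). Intervals of the 2 libraries were apart for both genes, and *Tbx21* was higher too, but by less than 1.5-fold, at 55.94 and 80.48 CPM. With the PBS cells restricted to those with *Xist*, the ratios were 0.85 for *Tox2* and 0.90 for *Prdm1*. When each cell was given the same weight rather than weighted by its UMIs, the ratio of *Tox2* was 0.47 and that of *Prdm1* 0.53, both under 1.5-fold. Outside T cells, *Prdm1* was higher too in plasma cells (1.115), neutrophils (1.172), Kupffer cells (1.179) and monocytes and macrophages (0.722). *Tbx21* was higher in the last 3 (1.459, 2.165 and 1.006). In B cells the intervals of both (0.158 and −0.092) included 0. The part of other cells' RNA in the CD8 differences was not tested.

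*Id2* was lower in the anti–PD-1 library, with 803.8 CPM (772.8 to 835.6) against 467.4 CPM (451.2 to 483.9) and a ratio of −0.78 (−0.86 to −0.71). *Eomes* stood at 103.4 CPM (92.45 to 115.2) against 61.58 CPM (55.81 to 67.78), with a ratio of −0.75 (−0.96 to −0.53). *Tcf7*, *Lef1* and *Bach2* were lower by less than 1.5-fold, with log2 ratios of −0.35, −0.24 and −0.27. With the PBS cells restricted to those with *Xist*, these ratios were −0.13, 0.07 and 0.18, and with male cells only they were −0.88, −0.47 and −0.89. *Tox*, at 166.6 and 170.3 CPM, had a ratio of 0.03 (−0.12 to 0.18), which became 0.73 with male cells only and −0.30 with cells weighted equally, and *Id3* one of 0.17 (−0.05 to 0.39).

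The *Id2* difference was not particular to CD8 cells. It was lower in the anti–PD-1 library in the γδ gate (log2 ratio −0.90), in the NKT-like gate (−0.78), in T cells without a subset marker (−0.77) and, outside T cells, in neutrophils (−1.18), at 723.5 and 319.6 CPM. NK cells (−0.366), tumor and biliary epithelial cells (−0.427), plasmacytoid dendritic cells (−0.913) and fibroblasts (−0.359) were lower as well. Monocytes and macrophages (0.18), Kupffer cells (0.20) and Tregs (0.43) went in the other direction. In B, plasma, dendritic and endothelial cells the intervals included 0.

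Within the PBS library, *Eomes* also differed between the cells marked by sex. It stood at 115.3 CPM (99.05 to 133.4) in the 394 CD8-gated cells with *Xist* and at 36.3 CPM (17.41 to 66.76; 10 UMIs) in the 77 CD8-gated cells with Y-linked transcripts, against 70.27 CPM (62.84 to 78.34) in the Y-linked cells of the anti–PD-1 library. These sets of cells also differed in state, since 91 of the 394, 5 of the 77 and 276 of the 758 cells, in that order, were checkpoint-high as defined below, and the part of state in these levels was not tested. Sex and animal cannot be told apart in these sets. With male cells only, the *Eomes* ratio was 0.95 rather than −0.75, and the direction of *Eomes* in CD8 cells depended on which PBS cells were compared. In that comparison 9 of the 10 factors were past 1.5-fold in either direction, rather than 4, and so were 42.1% of all genes tested, rather than 23.9%. The ratios of *Tox2*, *Tbx21*, *Prdm1* and *Eomes* there rested on 2, 7, 7 and 10 UMIs of the 77 PBS cells. The *Eomes* intervals of the Y-linked cells of the 2 libraries overlapped. *Tbx21* (67.24 and 25.41 CPM) and *Tcf7* (244 and 377.5 CPM) also differed between the PBS cells with *Xist* and those with Y-linked transcripts, with intervals apart. *Id2* was similar in both, at 854.3 CPM (809.1 to 901.4) and 755.1 CPM (656 to 865), and both were above the 480.6 CPM of the anti–PD-1 cells. *Prdm1* was at 27.54 and 25.41 CPM in the PBS cells and at 56.22 CPM in the Y-linked anti–PD-1 cells, and *Tox2* at 16.01, 7.261 and 31.35 CPM, although the PBS Y-linked cells gave 7 *Prdm1* and 2 *Tox2* UMIs in all, and their *Prdm1* interval overlapped that of the anti–PD-1 cells.

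**Figure D2:**
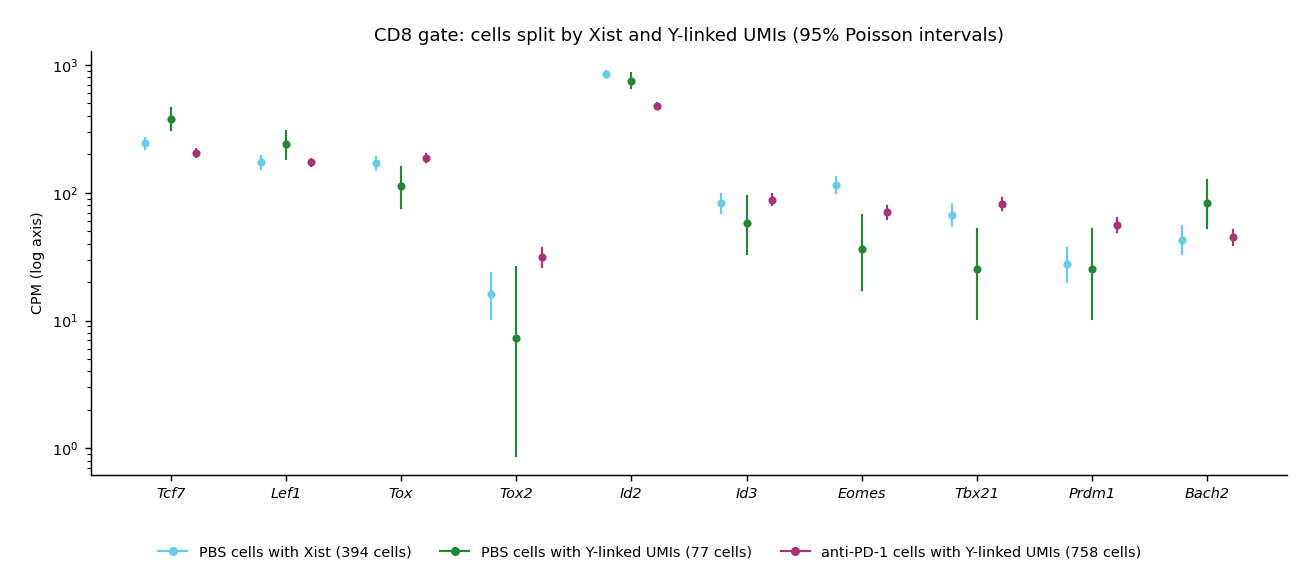
Level of each factor (CPM, log axis) in CD8-gated cells, split by sex-linked transcripts: PBS cells with *Xist* (light blue), PBS cells with Y-linked UMIs (green) and anti–PD-1 cells with Y-linked UMIs (purple). Points are levels and bars 95% Poisson intervals. *Eomes*, *Tbx21* and *Tcf7* differed between the 2 kinds of PBS cell. For *Eomes* the points of these lay on opposite sides of the anti–PD-1 cells, with overlapping intervals for the green and purple cells.

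CD8-gated cells were then divided by genes other than the 10 factors. Naive-like cells had a naive marker such as *Ccr7* and none of the effector, checkpoint and activation genes used. Checkpoint-high cells had at least 2 of *Pdcd1*, *Havcr2*, *Lag3*, *Tigit* and *Entpd1*. Effector-like cells were not checkpoint-high and had at least 1 of *Gzma*, *Gzmb*, *Gzmk*, *Prf1*, *Cx3cr1* and *Klrg1*. *Tcf7* stood at 523.4 CPM (468.7 to 582.7) and 526.4 CPM (483.3 to 572.3) in naive-like cells, 226 and 247.3 CPM in effector-like cells and 66.2 and 61.7 CPM in checkpoint-high cells. *Lef1* followed it, from 480.9 and 430.7 CPM in naive-like to 49.65 and 62.73 CPM in checkpoint-high cells. Intervals of these 3 states did not overlap for either factor in either library.

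*Tox* ran in the opposite order, with 36.15 and 29.67 CPM in naive-like, 161.3 and 103.5 CPM in effector-like and 445.3 and 294.8 CPM in checkpoint-high cells, the last a log2 difference of 3.62 and 3.31 over naive-like cells. *Prdm1* was nearly absent from naive-like cells (2 and 6 UMIs) and stood at 67.7 and 79.53 CPM in checkpoint-high cells. *Bach2* was higher in naive-like cells, at 97.45 and 89.96 CPM, than in checkpoint-high cells, at 28.59 and 27.08 CPM. *Id2* was lowest in naive-like cells, at 176 and 198.1 CPM. *Id3* varied least, between 52.66 and 99.02 CPM in the PBS library and between 72.67 and 120.6 CPM in the anti–PD-1 library over these 3 states.

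Within these states, the libraries differed less in *Tcf7* than over the whole gate. The log2 ratio of *Tcf7* was 0.01 (−0.19 to 0.21) in naive-like, 0.13 (−0.10 to 0.36) in effector-like, −0.10 (−0.58 to 0.41) in checkpoint-high and 0.01 (−0.23 to 0.25) in the remaining CD8 cells, against −0.35 in the gate as a whole. Checkpoint-high cells were 19.15% and 30.77% of CD8-gated cells and supplied 21.01% of the gate's UMIs with PBS and 43.08% with anti–PD-1. Of the genes that define this state, *Pdcd1*, *Lag3* and *Tigit* were themselves higher after anti–PD-1, with log2 ratios in the CD8 gate of 0.98, 0.91 and 0.64. With the anti–PD-1 levels of each state weighted by the PBS shares, the ratio was 0.04 for *Tcf7*, 0.12 for *Lef1* and −0.02 for *Bach2*. At these shares *Tox2* (0.46) and *Prdm1* (0.34) were under 1.5-fold, while *Id2* (−1.01) and *Eomes* (−1.04) stayed past it. The *Prdm1* ratio was 0.34 (−0.21 to 0.92) within effector-like and 0.23 (−0.23 to 0.73) within checkpoint-high cells. For *Lef1* the ratio in effector-like cells was 0.55 (0.26 to 0.84), opposite to that of the whole gate, and the intervals in the other 3 states included 0. These values depended on the depth at which states were read. When states were read from cells thinned to 1000 UMIs, 8.846% (6.802 to 11.26) and 8.056% (6.389 to 9.994) of CD8-gated cells were checkpoint-high and supplied 7.629% and 8.636% of the UMIs, *Tcf7* in effector-like cells was 100.3 and 68.3 CPM, and its ratio at PBS shares was −0.24. Read this way, the ratios at PBS shares were 0.92 for *Tox2*, 0.47 for *Prdm1*, −0.78 for *Id2* and −0.975 for *Eomes*.

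*Tox* was lower in the anti–PD-1 library within effector-like cells (log2 ratio −0.64, −0.94 to −0.34) and within checkpoint-high cells (−0.60, −0.79 to −0.40). At the PBS shares its ratio was −0.48, and −0.11 with states read from thinned cells. *Id2* had its largest difference in checkpoint-high cells, with 1501.5 CPM (1409.8 to 1597.6) against 595.1 CPM (567.4 to 623.8), a ratio of −1.33, while naive-like cells had 176 and 198.1 CPM, with a ratio of 0.17 (−0.17 to 0.52). *Eomes* was lower in effector-like cells, at 119.8 and 40.3 CPM, and in checkpoint-high cells, at 180.5 and 89.47 CPM. In effector-like cells split by sex, *Eomes* stood at 114 CPM (87.17 to 146.4) in PBS cells with *Xist*, 52.8 CPM (19.38 to 114.9, 6 UMIs) in PBS cells with Y-linked transcripts and 45.19 CPM (34.14 to 58.68) in the Y-linked cells of the anti–PD-1 library. In checkpoint-high cells, PBS cells with *Xist* gave 190.1 CPM, and only 5 PBS cells had Y-linked transcripts. *Tox2* was higher in checkpoint-high cells, at 28.59 and 54.85 CPM (log2 ratio 0.94, 0.25 to 1.71), but not in effector-like cells, at 16.42 and 12.94 CPM (−0.34, −1.28 to 0.63). With states read from thinned cells, *Tox2* stood at 22.64 and 63.62 CPM in checkpoint-high and at 29.71 and 45.19 CPM in effector-like cells.

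**Figure D3:**
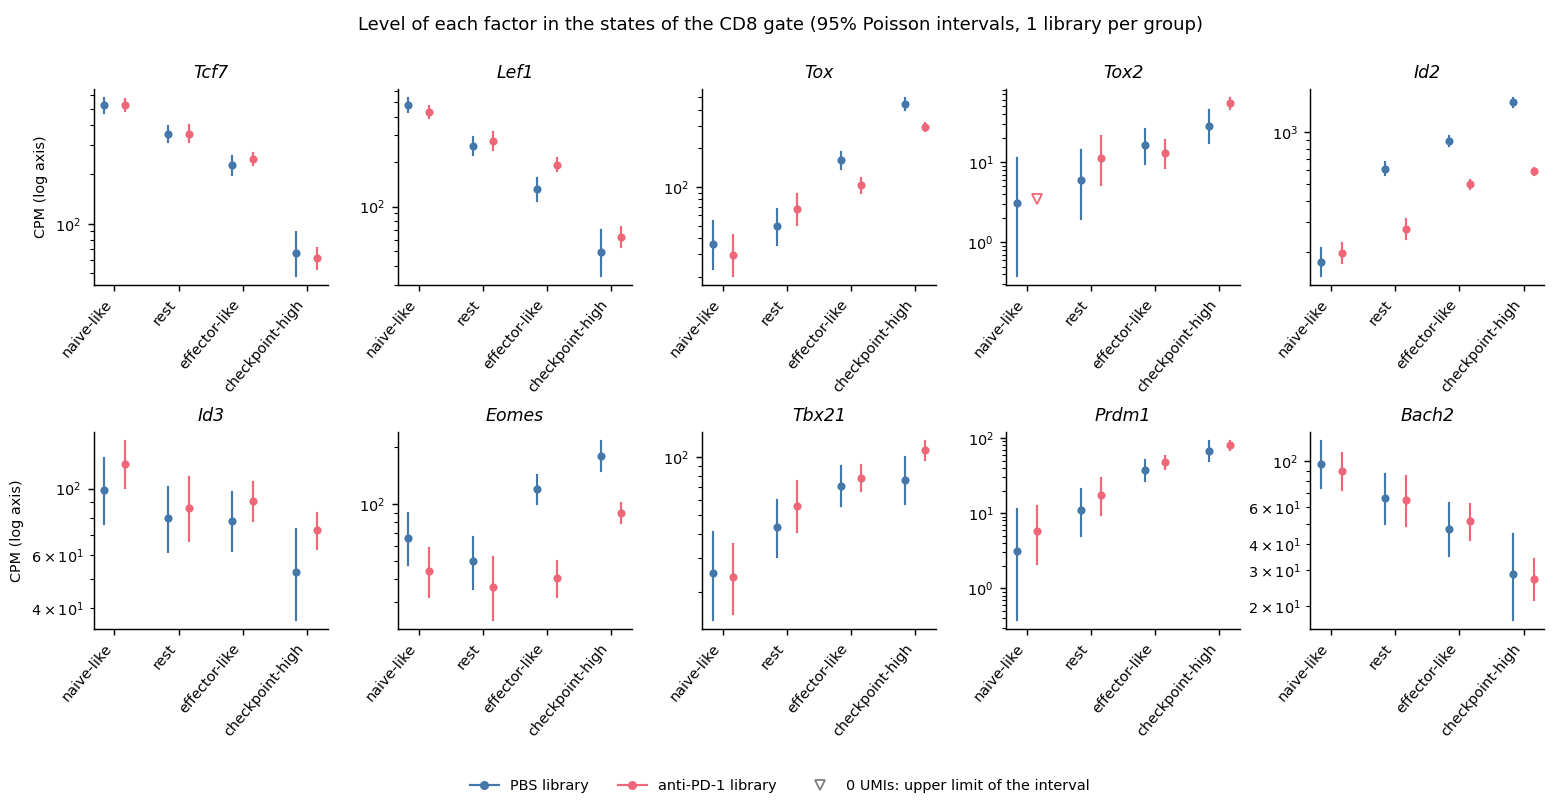
Level of each factor (CPM, log axis with its own range for each factor) in 4 states of the CD8 gate, for the PBS library (blue) and the anti–PD-1 library (red). Points are levels, bars 95% Poisson intervals, and an open triangle the upper limit at 0 UMIs. *Tcf7* and *Lef1* step down and *Tox* and *Prdm1* step up from naive-like to checkpoint-high cells in both libraries, while *Id2* and *Eomes* of the anti–PD-1 library lie below the PBS library in effector-like and checkpoint-high cells.

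The same oppositions were seen between single CD8-gated cells thinned to 1000 UMIs. *Tcf7* was detected in 5.747% and 7.027% of cells with a *Pdcd1* (encoding PD-1) UMI but in 22.71% and 21.75% of cells without one. *Tox* was detected in 35.63% and 25.41% of cells with *Pdcd1* and in 12.45% and 10.74% of cells without it. *Lef1* was more frequent in cells with *Tcf7* (37.17% and 29.76%) than in cells without it (14.83% and 15.02%). For *Eomes* and *Tbx21* no such link was detectable in thinned cells, since *Eomes* was found in 9.302% (2.593 to 22.14) and 3.409% (0.7086 to 9.641) of cells with *Tbx21* and in 8.227% and 4.181% of cells without it. Without thinning, *Eomes* was found in 32.12% (24.4 to 40.63) and 25.3% (20.71 to 30.34) of cells with *Tbx21* and in 21.11% (18.29 to 24.15) and 13.95% (11.82 to 16.29) of cells without it, intervals that were apart within each library. Unthinned cells differ in depth, and its part in this contrast was not tested. Unthinned, *Tcf7* was found in 13.69% and 18.75% of *Pdcd1*-positive cells and *Tox* in 62.5% and 65.97%.

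In the CD4 gate, 3 of the 10 factors were higher by 1.5-fold or more after anti–PD-1 (7.68% of all 10097 genes tested) and none were lower by that much (17% of all genes). The median log2 ratio of the factors was 0.35, against −0.16 for all genes. *Eomes*, scarce in CD4 cells, was counted 9 and 43 times, at 3.58 CPM (1.637 to 6.795) against 13.25 CPM (9.591 to 17.85), and all 43 UMIs of the anti–PD-1 library lay in activated cells (those with *Cxcr6*, *Ifng*, a checkpoint or a granzyme gene). At lower levels, *Eomes* was also higher after anti–PD-1 in neutrophils (1.779 and 5.225 CPM), in tumor and biliary epithelial cells (1.202 and 5.799 CPM) and in monocytes and macrophages (1.079 and 1.938 CPM), and the part of other cells' RNA in the CD4 difference was not tested. *Prdm1* stood at 30.23 and 52.09 CPM (log2 ratio 0.79, 0.39 to 1.195) and *Bach2* at 50.51 and 76.74 CPM (0.60, 0.29 to 0.92).

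*Prdm1* was higher in the activated CD4 cells after anti–PD-1, at 31.5 and 65.7 CPM, and so was *Tbx21*, at 67.57 and 102.8 CPM, whereas *Tcf7* was lower there, at 316.5 and 247.9 CPM (log2 ratio −0.35, −0.52 to −0.19). *Lef1* was higher in the whole CD4 gate (171.4 and 220.7 CPM), lower within naive-like CD4 cells (log2 ratio −0.31, −0.60 to −0.02) and higher in the CD4 cells that were neither naive-like nor activated (1.08, 0.64 to 1.54), and its ratio at the PBS shares of the states was 0.19 rather than 0.36. Naive-like cells made up 13.33% (10.89 to 16.1) and 19.08% (16.38 to 22.01) of the CD4 gate, or 9.642% and 19.85% with thinned cells. *Id2* was lower, at 822.5 and 615.8 CPM. *Id3* (0.34) and *Tbx21* (0.45) were higher and *Tcf7* (−0.14) lower in the whole gate by less than 1.5-fold, and the ratios of *Tox* (−0.15) and *Tox2* (0.15) had intervals that included 0. These differences were sensitive to how cells were chosen and scaled. *Tbx21* had a ratio of −0.29 with male cells only, *Id3* one of −0.21 with gates read from thinned cells and *Tcf7* one of 0.02 with median-ratio scaling. With gates read from thinned cells *Eomes* had 6 and 7 UMIs, a ratio of −0.17, and *Bach2* a ratio of 0.00, and with doublet-like cells left out 1 factor rather than 3 was past 1.5-fold, as were 24.4% rather than 24.7% of all genes. The summed neutrophil markers were 423.2 and 868.8 CPM in the CD4 gate, and their part in these differences was not tested.

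In Tregs, 1 of 9 factors with enough UMIs was at least 1.5-fold higher (9.99% of all 7979 genes) and none was lower (14.4%). *Bach2* had 23 and 45 UMIs, a log2 ratio of 0.80 (0.05 to 1.59). The ratio became −1.30 with gates read from thinned cells, where 8 rather than 9 factors had enough UMIs. Those Treg gates held 128 and 123 cells. The *Bach2* value is a description only, since its UMIs there may lie under the minimum for a ratio. *Id2* was higher, at 395.8 CPM (358.9 to 435.5) and 533.5 CPM (492.8 to 576.5), in contrast to the CD8, CD4, γδ and NK gates. With male cells only the direction turned, with 669.1 CPM (496.6 to 882.1) in 22 PBS cells and 526.6 CPM (477.8 to 579) in the anti–PD-1 library, a ratio of −0.35. *Prdm1* (95.9 and 97.98 CPM) and *Lef1* (98.73 and 101.3 CPM) had ratios of 0.03 (−0.37 to 0.43) and 0.04 (−0.35 to 0.43). The ratios of *Tcf7* (−0.21), *Tox* (0.26), *Tox2* (−0.17), *Id3* (0.41) and *Tbx21* (0.34) also had intervals that included 0, and *Eomes*, with 2 and 3 UMIs, was too scarce for a ratio. In the Treg gate the summed neutrophil markers were 408.1 and 823.2 CPM and the summed tumor and biliary epithelial markers 1271.2 and 1054.4 CPM. Their part in the Treg differences was not tested.

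The γδ gate was small, and 6 factors had enough UMIs. Of these, 2 were higher (13.1% of all 3142 genes) and 1 was lower (13.2%). *Id3*, which in γδ T cells is induced by strong receptor signals, was counted 5 and 33 times, at 20.85 CPM (6.769 to 48.65) against 114.4 CPM (78.72 to 160.6), with a ratio of 2.46 (1.09 to 4.17). With gates read from thinned cells the *Id3* ratio was 0.69, from 10 and 18 UMIs. These counts lie under the minimum for a ratio, so the value is a description only. In the γδ gate the summed neutrophil markers were 229.3 and 675.7 CPM (*Cxcr2* at 0 with PBS) and the summed Kupffer cell markers 166.8 and 343.1 CPM (*Timd4* at 0 with PBS), and their part in the *Id3* difference was not tested. *Id3* was also higher after anti–PD-1 in monocytes and macrophages (log2 ratio 1.14), neutrophils (0.96) and Kupffer cells (0.69). *Tox* had 16 and 31 UMIs and an interval that included 0. *Id2* was lower, at 1109.1 and 592.6 CPM. *Tcf7* (−0.20), *Lef1* (−0.53) and *Tbx21* (−0.004) had intervals that included 0, and *Tox2* (0 and 2 UMIs), *Eomes* (4 and 11), *Prdm1* (2 and 6) and *Bach2* (11 and 7) were too scarce for a ratio.

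**Figure D4:**
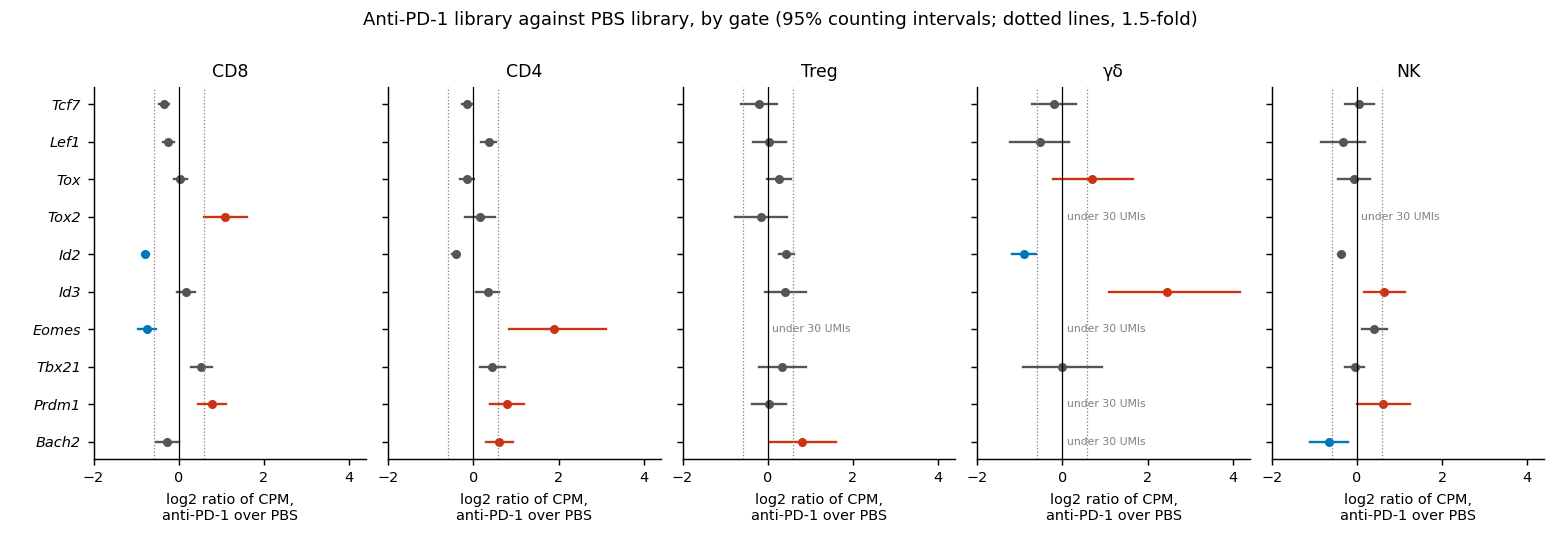
Log2 ratio of CPM, anti–PD-1 over PBS, for each factor in 5 gates, with 95% counting intervals. Red marks at least 1.5-fold higher, blue at least 1.5-fold lower, grey less than 1.5-fold, and dotted lines 1.5-fold. *Id2* lies left of 0 in 4 gates and right of 0 in Tregs, and *Eomes* lies left of 0 in CD8 cells and right of 0 in CD4 and NK cells.

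NK cells had 9 factors with enough UMIs. Of these, 2 were higher (7.64% of all 8673 genes) and 1 was lower (18.5%). *Id3* stood at 42.45 and 65.68 CPM (log2 ratio 0.63, 0.16 to 1.12) and *Prdm1* at 25.81 and 39.31 CPM (0.61, −0.005 to 1.25), while *Bach2* stood at 69.09 and 44.1 CPM (−0.65, −1.09 to −0.20). *Eomes* was higher by less than 1.5-fold, at 109.1 and 144.8 CPM, and *Id2* lower, at 1759.8 and 1365.3 CPM. *Tbx21*, at 214.8 and 207.1 CPM, had a ratio of −0.05 (−0.28 to 0.18). The ratios of *Tcf7* (0.06), *Lef1* (−0.34) and *Tox* (−0.08) had intervals that included 0, and *Tox2* gave 1 UMI in each library. With gates read from thinned cells, none of the factors was past 1.5-fold, where 26.8% of all genes were. The summed neutrophil markers were 178.1 and 828.9 CPM in the NK gate, with *Cxcr2* at 0 in the PBS library.

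The NK gate was divided by genes other than the factors into conventional-like cells (*Itga2*, *S1pr5*, *Klra4*, *Klra8* or *Itgam*) and ILC1-like cells (*Itga1*, *Cd200r1* or *Cxcr6*), each without the other's markers, the latter resembling the liver's resident innate lymphocytes. *Eomes*, which distinguishes these lineages in mouse liver, stood at 293.7 CPM (240.9 to 354.6) and 321.3 CPM (282.4 to 364.1) in conventional-like cells and at 5.296 CPM (3 UMIs) and 14.51 CPM (12 UMIs) in ILC1-like cells. This was the steepest contrast of any factor between the NK states, a log2 difference of 5.79 and 4.47. *Tbx21* was shared by both, at 291 and 236.4 CPM against 181.8 and 195.9 CPM, and so was *Id2*, at 1683.3 and 1183.4 CPM against 1798.7 and 1571 CPM.

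*Tox* had the reverse pattern, with 35.35 and 28.74 CPM in conventional-like and 116.5 and 122.1 CPM in ILC1-like cells. Within the PBS library *Lef1* was higher in conventional-like cells, at 78.86 CPM, than in ILC1-like cells, at 31.77 CPM. In the anti–PD-1 library the interval of this difference included 0. Within conventional-like cells *Eomes* had a log2 ratio between libraries of 0.13 (−0.20 to 0.47), an interval that holds both 0 and the value of the whole NK gate. *Prdm1* was higher in ILC1-like cells of the anti–PD-1 library, at 17.65 and 43.54 CPM (10 and 36 UMIs). The 2 states held 37.58% and 38.53%, and 40.94% and 38.53%, of the NK-gated cells.

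**Figure D5:**
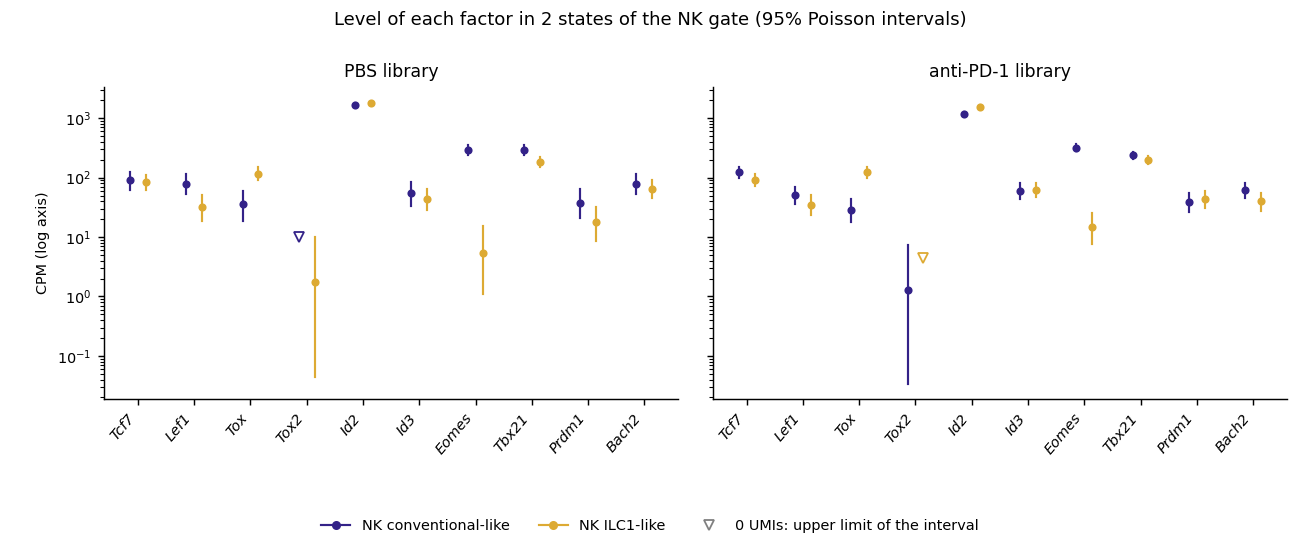
Level of each factor (CPM, log axis) in conventional-like (dark blue) and ILC1-like (yellow) cells of the NK gate, with the PBS library on the left and the anti–PD-1 library on the right. Points are levels, bars 95% Poisson intervals, and open triangles the upper limit at 0 UMIs. *Eomes* separates the states by a log2 difference of 5.79 and 4.47, *Tox* runs the other way, and *Id2* and *Tbx21* are high in both.

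Other genes of these programs were followed in lists chosen from general knowledge, with earlier results of these data known. Among 30 other T cell transcription factors in the CD8 gate, 29 had enough UMIs, of which 8 were at least 1.5-fold higher and 4 lower, with a median log2 ratio of 0.17. Over all genes tested in the CD8 gate, 8.26% were higher, 15.6% were lower and the median was −0.11, and the lists below are to be read beside these values. The highest were *Nfil3*, a basic leucine zipper repressor (22.76 and 127.7 CPM), and *Myb*, a factor of stem-like and proliferating cells (8.534 and 30.27 CPM), and *Zbtb16* (encoding PLZF, 11.69 and 2.806 CPM) was among those lower. *Nfil3* was the highest of this list in CD4 cells (19.49 and 170.7 CPM) and in NK cells (40.79 and 237.3 CPM) too. Of 13 partners and regulators of the 10 factors, 2 were higher in CD8 cells and none lower, namely *Id1* (6.637 and 15.51 CPM) and *Mafk*, a partner of BACH proteins (19.28 and 36.03 CPM).

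Checkpoint and exhaustion genes were higher in CD8 cells of the anti–PD-1 library, 10 of 15 past 1.5-fold, 2 lower, and a median log2 ratio of 0.91. *Nr4a3* (13.27 and 145.5 CPM) and *Nr4a1* (65.43 and 395.3 CPM), factors induced by receptor signals, led the list, and *Cd101* (28.45 and 10.34 CPM) and *Cd244a* (40.46 and 21.85 CPM) were lowest. Some genes of this list defined the checkpoint-high state. Dissociation stress genes were also higher in the CD8 gate, and the part of stress in the levels of this list was not tested. Of 12 memory and naive genes, 3 were higher and 1 lower, with *Ccr7* (112.2 and 324.7 CPM) and *Cd28* (108.4 and 241.7 CPM) at the top and *Il7r* (560.7 and 334.8 CPM) below, beside the lower *Tcf7* and *Lef1*. Of 14 effector genes, 3 were higher, led by *Ifng* (55.63 and 290.2 CPM) and *Ccl3* (144.1 and 265.7 CPM), and 3 lower, with *Cx3cr1* (25.92 and 11.08 CPM) and *Klrg1* (15.17 and 7.974 CPM) at the bottom. In CD4 cells 8 of 12 memory and naive genes were higher and none lower, a median log2 ratio of 0.81, where 7.68% of all genes were higher, 17% were lower and the median was −0.16. In the same gate 8 of 13 effector genes were higher and 2 lower (median 0.67). Of 15 checkpoint and exhaustion genes there, 8 were higher and 2 lower (median 0.63).

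Likeness was described over the 8 gates of both libraries, 16 points that share libraries and depth, among 6637 genes with a mean of at least 20 CPM. The gene most like *Tox2* was *Pdcd1* (Pearson r = 0.94), followed by *Batf* (0.94), and *Tox* was most like *Gprin3* (0.92) and *Tox2* (0.91). *Eomes* was most like *Ccl5* (0.91) and *Nkg7* (0.90), and *Tbx21* most like *Klrb1f* (0.95) and *Gzmc* (0.95). *Lef1* was most like *Rps19* (0.94) and *Themis* (0.93), *Tcf7* most like *Rpl31* (0.89) and *Igfbp4* (0.87), and *Id2* most like *Anxa1* (0.94) and *Lpar6* (0.93). *Prdm1* was closest to *Hnrnpk* (0.93) and *Mxi1* (0.92), and *Id3* to *Snhg15* (0.93) and *Npc2* (0.91). *Bach2* had no close match, with *Kbtbd2* and *Paf1* at 0.77 each. Among the 10 factors themselves, the most opposed pair was *Tox2* and *Id2*, with r = −0.84.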

How the data were processed

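Single-cell RNA-Seq of 2 libraries (shYT_PBS and shYT_antiPD1, 1 per group) was analysed. The authors deposited raw UMI counts per gene and barcode, made with the Singleron software against mm10. Seurat 4.3 is named in the submitters' processing notes. Handling of strand and of shared reads is not given in the sources used here. The libraries held 121713441 and 100807037 UMIs in 19397 and 19451 barcodes. Kept cells had 500 to 5000 detected genes and a mitochondrial share of UMIs of no more than 10%. A cell took the class, of 13, with the highest share of detected markers (at least 2, ties unassigned). T cells were then gated by single markers, as given with the results, and no doublet caller was run.

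UMIs were summed per library and gate (Python 3.11.15, numpy 2.4.6, scipy 1.17.1). Levels carry exact Poisson and ratios exact conditional binomial intervals. No pseudocount was used, except 5 CPM before the log2 for likeness. Shares were taken after thinning cells to 1000 UMIs, with exact Clopper-Pearson intervals. The interval code was tested on simulated data. All 10 factors were named in every gate, and from other lists at most the 2 highest and 2 lowest past 1.5-fold. Besides these, *Pdcd1*, *Lag3* and *Tigit* were given as genes that define the checkpoint-high state, without ratios for *Havcr2* and *Entpd1*. Further list genes were named only as gate markers or for their likeness to a factor. The factors and lists were chosen with earlier results of these data known. The split of PBS cells by *Xist*, and the weighting of states, were added after the data were seen. One marker of the naive-like gate and one gene of a list are not reported here.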

Additional observations from a re-analysis of the deposited data

Results flagged for a closer look

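For 4 of the 10 factors the difference between the libraries had opposite directions in 2 gates, with both counting intervals clear of 0. The difference between gates was itself not tested, since each group was 1 library. *Id2* was lower after anti–PD-1 in the CD8 gate (log2 ratio −0.782), the CD4 gate (−0.418), the γδ gate (−0.904) and the NK gate (−0.366) and higher in Tregs (0.430), where the ratio was −0.346 with male cells only. *Eomes* was lower in the CD8 gate (−0.747) and higher in the CD4 gate (1.888) and the NK gate (0.409). Within Y-linked cells its CD8 ratio was 0.953. With gates read from thinned cells its CD4 ratio was −0.168, a description only, from fewer UMIs than the minimum for a ratio. *Lef1* was lower in the CD8 gate (−0.245) and higher in the CD4 gate (0.364), and its CD8 ratio was 0.074 with the PBS cells that had *Xist*. *Bach2* was lower in the CD8 gate (−0.272) and the NK gate (−0.648) and higher in the CD4 gate (0.603) and in Tregs (0.801). Its CD8 ratio was 0.175 with the PBS cells that had *Xist*. With gates read from thinned cells, its ratios were 0.001 in the CD4 gate and −1.301 in Tregs. The Treg value is a description only, since its UMIs may lie under the minimum for a ratio.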

How the results depend on the processing

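No replicate could be left out, and no group had a spread between samples, because each was 1 library. No paired analysis was possible because each group had 1 library, numbered only by order. Of the 10 factors, 4 were past 1.5-fold in the CD8 gate, 3 in the CD4 gate, 1 in Tregs, 3 in the γδ gate and 3 in NK cells. With male cells only these counts became 9 in the CD8 gate, 6 in Tregs and 1 in NK cells, while the share of all genes past 1.5-fold went from 23.9% to 42.1%, from 24.4% to 43.2% and from 26.2% to 35.7%. The CD4 gate then gave 4 and the γδ gate 2 of 4 with enough UMIs (33.3% and 43.3% of all genes). With cells weighted equally the counts became 2 in the CD8 gate, 1 in the CD4 gate and 0 in Tregs (24.9%, 25.3% and 27.9% of all genes). The γδ gate and NK cells then gave 2 each (29.2% and 29.9%). With gates read from thinned cells the counts became 2 of 8 with enough UMIs in Tregs, 1 of 4 in the γδ gate and 0 of 9 in NK cells (23.6%, 28.3% and 26.8% of all genes). The CD8 gate then gave 3 and the CD4 gate 2 of 9 (22.3% and 21.9%). With doublet-like cells left out the counts became 1 in the CD4 gate, 2 in Tregs and 2 of 2 in the γδ gate (24.4%, 28.4% and 30.1% of all genes). Tregs gave 2 with no upper limit on detected genes (22.8% of all genes) and 3 with the PBS cells that had *Xist* (27.1%), an alternative added after seeing the data. Under the same 2 settings NK cells gave 2 and 4 (26.1% and 29.2%). The γδ gate gave 4 with the PBS cells that had *Xist* (34.6%). A pseudocount of 5 CPM left 1 factor in NK cells and 2 in the CD4 gate (19.5% and 15.4% of all genes). Median-ratio scaling gave 5 in the CD8 gate, 4 in the CD4 gate and 2 in NK cells (22.3%, 21.7% and 22.9%). The γδ gate gave 5 with a minimum of 10 UMIs and 6 with 1 UMI in each library, where 39.8% and 46.9% of all genes were past 1.5-fold, against 26.3%. NK cells gave 4 with 1 UMI in each library (40.9%). Among ratios whose interval excluded 0, the direction turned with male cells only for *Eomes* in the CD8 gate (0.953), *Tbx21* in the CD4 gate (−0.288) and *Id2* in Tregs (−0.346). It turned with gates read from thinned cells for *Id3* in the CD4 gate (−0.211) and *Bach2* in Tregs (−1.301). The *Bach2* value is a description only, since its UMIs there may lie under the minimum for a ratio. The direction also turned under that setting for *Eomes* in the CD4 gate (−0.168), from fewer UMIs than the minimum for a ratio. It turned with the PBS cells that had *Xist* for *Lef1* (0.074) and *Bach2* (0.175) in the CD8 gate, with doublet-like cells left out for *Id3* in the CD4 gate (−0.059) and with median-ratio scaling for *Tcf7* in the CD4 gate (0.019). In the CD8 gate the *Id2* ratio lay between −0.870 and −0.652, *Tox2* between 0.474 and 2.110 and *Prdm1* between 0.526 and 1.145 over 12 alternatives. The cause of these shifts was not tested. Reading CD8, CD4 and NK states from thinned cells moved 63 of 140 levels outside their counting intervals.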
